A study of Mus musculus with 9 samples.

Results

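E2f6 encodes a repressive member of the E2F family of transcription factors, and it is described here with 3 partners from its repressor complex (L3mbtl2, Pcgf6 and Mga) and 5 germline genes known as its targets (Stag3, Smc1b, Slc25a31, Tuba3a and Tuba3b). These 9 genes, of 54838 in the count table, were taken by symbol and selected on the level of E2f6 RNA, which was nearly absent from 1 of the 3 groups, the knockout clone. That choice rests on the 2 comparisons that involve the knockout clone, so the members' values in those comparisons are a description and carry no test. The difference between the other 2 groups did not enter the choice and was tested, although the choice did require E2f6 RNA in both.

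Messenger RNA was sequenced in 9 libraries, made from total RNA of untreated PDA530 Met cells, a mouse pancreatic ductal adenocarcinoma line of metastatic origin, taken from the liver of a male animal of mixed 129/SvJae and C57Bl/6 background from the KPC model. The 3 knockout-clone libraries came from clone E4, in which CRISPR/Cas9 was used to disrupt Zdhhc20, a palmitoyltransferase gene. The 3 control-clone libraries came from clone C5, which received those guide RNAs by nucleofection but remained unedited and still expresses Zdhhc20, and the 3 parental libraries came from the unmodified line. Each clone is a single clone, so its libraries repeat that clone and not the edit, and a difference between the edit and the choice of clone cannot be told apart. Nothing in the labels says whether the 3 libraries of a group were separate cultures, so the p-values below measure the spread between these libraries, which may be technical. That spread was widest in the control clone, where pairs of libraries differed by a chi-square per gene of 39.1 to 93.2, beside 7.46 to 18.5 in the knockout clone and 5.01 to 15.6 in the parental cells; counting noise alone gives about 1.

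E2F6 lacks the activation domain of the classical E2F activators and represses transcription as part of a variant Polycomb repressive complex, PRC1.6, in which PCGF6 is the defining subunit, MGA and MAX bind E-box sequences, and L3MBTL2 is a chromatin-binding subunit. In somatic cells this complex is known for keeping a group of germline genes silent, and their promoters are known to be DNA-methylated as well. The 5 target genes studied here act in meiotic chromosome cohesion, in sperm energy supply and in the testis microtubule system.

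The libraries held 16525869 to 23192701 counts, and 13153 genes passed the filter on low counts and were tested. Levels are given as CPM, a gene's counts relative to the size of its library, with libraries scaled by the TMM method. Zdhhc20 checks the labels: its knockout-clone libraries were at 33.9 to 42.5 CPM, beside 85.8 to 123 CPM in the control clone and 75.3 to 90.7 CPM in the parental cells. Of 6 ductal epithelial markers, 5 were above 1 CPM, with Epcam near 0, and the summed level of the 6 was 3880 to 4090 CPM in the knockout libraries, 6260 to 8440 CPM in the control clone and 6310 to 7760 CPM in the parental cells. Not all 6 were lower in the knockout clone. Krt19 had 3008 to 3320 counts there, beside 13843 to 37976 in the control clone and 16786 to 25842 in the parental cells. Sox9 counts overlapped both other groups, and Epcam had 10 to 13 counts beside 2 to 4 and 2 to 5. Leukocyte markers summed to at most 0.175 CPM in any library, endothelial markers to at most 0.467 CPM, acinar markers to at most 0.53 CPM and fibroblast markers to at most 3.95 CPM, with Dcn at 0. The part of the lower summed epithelial marker level in the results below was not tested.

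E2f6 (ENSMUSG00000057469, chr12:16810963-16839742, plus strand, GRCm38, overlapping no other annotated gene) was represented by 1, 1 and 0 counts in the 3 knockout-clone libraries. The control-clone libraries held 599, 537 and 460 counts, which are 26.1, 31.9 and 24.1 CPM. The parental libraries held 508, 442 and 409 counts, which are 24.5, 26.0 and 24.1 CPM. Every knockout-clone library was therefore far below each of the other 6, which lay close together. Summed over libraries, the level in the control clone was 755 times that in the knockout clone, with an exact 95% counting interval of 209 to 6240 for 1596 against 2 counts. For the parental cells the ratio was 690, with an interval of 191 to 5700 for 1359 against 2 counts; these intervals cover counting error only. In bulk RNA, fewer cells that express a gene and less RNA per cell cannot be told apart. The control clone (27.4 ± 4.05 CPM, SD, n = 3) and the parental cells (24.9 ± 1.05 CPM, n = 3) did not pass the test for E2f6, with a log2 fold change of 0.14 (SE 0.13) and an adjusted p of 0.498 in edgeR's quasi-likelihood test.

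L3mbtl2 (ENSMUSG00000022394, chr15:81663889-81688315, plus strand) encodes a chromatin-binding subunit with MBT repeats, and it remained expressed. The knockout-clone libraries were at 69.0, 72.9 and 69.5 CPM. In the control clone it was at 68.9, 80.2 and 47.8 CPM, and in the parental cells at 61.2, 59.6 and 54.0 CPM. The knockout libraries lay above all parental libraries but inside the range of the control clone, where replicate 3 was low. The log2 fold change of the knockout clone was 0.10 (SE 0.16) against the control clone and 0.27 (SE 0.16) against the parental cells. The first of these values ran from -0.08 to 0.27 when single libraries were left out, the lowest being that without control replicate 3, so its sign is not settled. L3mbtl2 overlaps Chadl and Gm18284 in the annotation, and how the counting treated strand is not given in the sources used here, so some of its reads could belong to those genes.

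Pcgf6 (ENSMUSG00000025050, chr19:47033617-47050906, minus strand) encodes the Polycomb ring finger protein that defines PRC1.6. The knockout-clone libraries were at 42.6, 40.3 and 41.4 CPM. The control-clone libraries were at 27.5, 31.3 and 19.9 CPM, and the parental libraries at 29.3, 28.4 and 25.6 CPM. All 3 knockout libraries were higher than each of the other 6. The level was 1.58 times that of the control clone (log2 fold change 0.66, SE 0.15) and 1.49 times that of the parental cells (0.58, SE 0.15).

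Mga (ENSMUSG00000033943, chr2:119897228-119969581, plus strand) encodes the large MAX partner that gives the complex its E-box binding. Its levels were 128, 116 and 122 CPM in the knockout clone. They were 82.8, 90.9 and 87.3 CPM in the control clone, and 96.8, 93.4 and 84.1 CPM in the parental cells. Here too the knockout libraries did not overlap the others, at 1.41 times the control clone (log2 fold change 0.49, SE 0.08) and 1.34 times the parental cells (0.42, SE 0.08). Pcgf6 and Mga each overlap no other annotated gene.

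**Figure D1:**
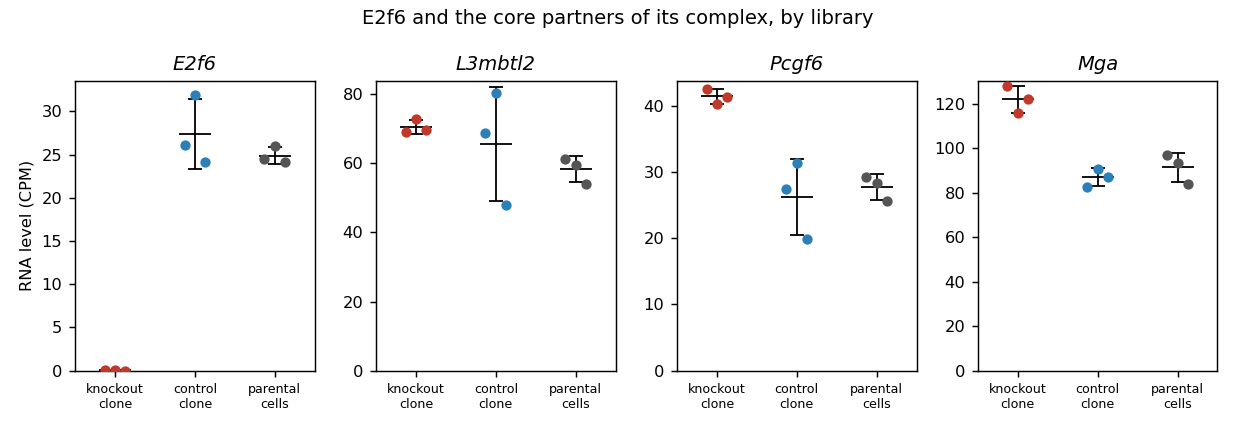
Level of E2f6 and its 3 core partners in every library, in CPM on a linear axis from 0; each point is 1 library, and the horizontal mark and bars are the mean and SD of 3 libraries. E2f6 sits at 0 to 0.0556 CPM in the knockout clone, Pcgf6 and Mga sit above the other 6 libraries there, and L3mbtl2 lies within the range of the control clone.

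Of the 9 members, 4 passed the filter on low counts and 5 did not. No calls are counted for them in the knockout comparisons, in which they were chosen. Over all 13153 tested genes, 42.9% were called at an adjusted p under 0.05 against the control clone and 31.4% against the parental cells, with 8.19% higher in both. Of the same genes, 34.2% had knockout libraries that did not overlap the other 6. In the comparison of control clone with parental cells, edgeR called 0 of the 4 members, beside 21.4% of tested genes (10.4% higher). The choice did not use that difference, but for E2f6 it required RNA in both groups. Under an unadjusted p of 0.05 there were 0 of 4, and limma voom and DESeq2 called 0 as well. In that comparison the difference was a log2 fold change of 0.17 (SE 0.16, adjusted p 0.476) for L3mbtl2, -0.08 (SE 0.15, adjusted p 0.721) for Pcgf6 and -0.07 (SE 0.08, adjusted p 0.559) for Mga. Without control-clone replicate 3, L3mbtl2 passed the test at 0.36 (adjusted p 0.0148) and Pcgf6 changed sign to 0.08 (adjusted p 0.539).

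Levels can be set beside each other between genes only per length, here as CPM per kilobase of the union of a gene's exons. In the parental cells L3mbtl2 was highest at 9.80 ± 0.638 (SD, n = 3), followed by Mga at 5.96 ± 0.43, Pcgf6 at 5.53 ± 0.388 and E2f6 at 4.39 ± 0.185. The library ranges of Mga and Pcgf6 overlapped in that group, while E2f6 lay below both. The control clone gave the same order, with the ranges of Mga, Pcgf6 and E2f6 overlapping. In the knockout clone L3mbtl2 was at 11.8 ± 0.359, Pcgf6 at 8.24 ± 0.234 and Mga at 7.97 ± 0.379 per kilobase, the last pair overlapping, and E2f6 was at 0.00615 ± 0.00536. The order depends on the length used: with the longest transcript in place of the exon union, the parental levels were 12.5 for L3mbtl2, 9.81 for Pcgf6, 8.24 for E2f6 and 6.56 for Mga.

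The 5 germline members had next to no RNA in any group. Stag3, a meiotic cohesin subunit (ENSMUSG00000036928, chr5:138280240-138312393, plus strand), had 1, 0 and 1 counts in the knockout clone, none in the control clone, and 1, 0 and 0 in the parental cells. Smc1b, the meiotic cohesin partner (ENSMUSG00000022432, chr15:85064689-85131964, minus strand), had 0 counts in all 9 libraries. Slc25a31, the testis ADP/ATP carrier (ENSMUSG00000069041, chr3:40708855-40726096, plus strand), was also at 0 throughout. Tuba3a (ENSMUSG00000067702, chr6:125278274-125286042, minus strand) and Tuba3b (ENSMUSG00000067338, chr6:145615757-145621479, plus strand), the testis alpha-tubulins, were at 0 in every library; they are near-identical copies, so a low count could have been split between them. A count of 0 over the 3 knockout libraries allows a level of up to 0.054 CPM, taking 3 counts as the limit, and over all 9 libraries up to 0.0177 CPM. No difference between the knockout clone and the other groups was detectable at this depth for these 5 genes, and none passed the filter for testing. In the same knockout libraries E2f6 had 2 counts in total, as many as Stag3.

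The promoters of these 5 genes are shown because E2F6 is known to act at them through an E2F motif. A promoter here is the 300 bases from 250 before to 50 after the RefSeq start, and 32851 such windows of GRCm38.p6 were searched on both strands. The 6 letters TCCCGC (reverse GCGGGA), the core of an E2F motif, were in 5 of 5 germline members, in 1 of 4 complex members (E2f6 itself) and in 20.0% of all promoters. The stretches around them follow, 60 bases each, 5′ to 3′ on the strand of the gene, with the core motif in capitals.
Stag3 (chr5:138280479-138280538, plus strand): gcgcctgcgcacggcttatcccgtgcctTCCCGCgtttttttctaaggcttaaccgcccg
Smc1b (chr15:85131972-85132031, minus strand): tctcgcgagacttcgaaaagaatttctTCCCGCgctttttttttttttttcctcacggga
Slc25a31 (chr3:40708841-40708900, plus strand): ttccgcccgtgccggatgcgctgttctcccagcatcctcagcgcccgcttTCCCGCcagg
Tuba3a (chr6:125286168-125286227, minus strand): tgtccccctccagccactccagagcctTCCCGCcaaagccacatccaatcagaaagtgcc
Tuba3b (chr6:145615830-145615889, plus strand): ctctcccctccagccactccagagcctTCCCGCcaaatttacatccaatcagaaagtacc

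The core motif began 2 bases before the RefSeq start in Stag3, 47 before in Smc1b, 119 before in Tuba3a, 106 before in Tuba3b and 20 after in Slc25a31. The Stag3 and Tuba3b stretches lie inside the gene spans given above, so their cores fall after the start of those spans. The Tuba3a and Tuba3b stretches were identical at 52 of 60 bases, so they are not independent examples. The longer form TTCCCGCC (reverse GGCGGGAA), which contains the core, was in Slc25a31, Tuba3a and Tuba3b, which is 3 of 5 germline members beside 2.19% of all promoters. The E-box CACGTG, which reads the same on both strands, was in Stag3 (170 before the start) and Slc25a31 (93 before), beside 7.15% of all promoters. In E2f6 the core lay on the reverse strand, 53 bases before the start. These matches describe the letters only and are not shown to be bound.

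Of 37 other germline genes, 15 had 0 counts in all 9 libraries, 19 had counts too low to be tested and 3 were tested. All 3 tested genes were called higher in each knockout comparison, beside 18.7% of all tested genes called higher against the control clone and 13.1% against the parental cells. These 3 were tested because they were already expressed in every group, so their number says nothing of the list as a whole. The 34 untested genes had summed counts of 13, 18 and 9 in the knockout libraries, 25, 22 and 48 in the control-clone libraries and 17, 22 and 30 in the parental libraries. The knockout libraries overlapped the parental ones and were below every control-clone library. In CPM the sums were 0.526 to 1.0 in the knockout libraries, 1.09 to 2.52 in the control clone and 0.819 to 1.77 in the parental cells. The sums rest in part on Brdt, singled out for its counts of up to 22. Without it the sums were 13, 13 and 8 in the knockout libraries, 16, 21 and 26 in the control-clone libraries and 11, 15 and 13 in the parental libraries. Of the germ cell markers, Dazl had 0 counts in every library, and Ddx4 and Dazl together reached at most 0.167 CPM in a knockout library, 0.472 CPM in a control-clone library and 0.118 CPM in a parental one.

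Zcwpw1 encodes a histone methylation reader of meiotic recombination (chr5:137787798-137822621). The knockout-clone libraries were at 31.4, 29.3 and 29.2 CPM, with 9.08, 7.50 and 5.30 CPM in the control clone and 11.1, 12.3 and 14.1 CPM in the parental cells. The knockout libraries were above all others. Against the control clone the difference was a log2 fold change of 2.03 (SE 0.18, adjusted p 3.97e-05), and against the parental cells it was 1.26 (SE 0.17, adjusted p 0.000681). The control clone was itself lower than the parental cells by -0.77 (SE 0.18, adjusted p 0.0155), a call that did not hold without parental replicate 3 (-0.69, adjusted p 0.0565) or in a fit to those groups alone (adjusted p 0.062). Its end overlaps Pilra, which had log2 fold changes of -0.95 (adjusted p 0.000969) and -0.12 (adjusted p 0.602) in the knockout comparisons, and 0.84 (adjusted p 0.0049) between control clone and parental cells.

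Syce2 encodes a central element protein of the synaptonemal complex (chr8:84872111-84888221). Its levels were 50.2, 53.7 and 49.3 CPM in the knockout libraries, 18.9, 13.1 and 14.0 CPM in the control clone and 26.0, 25.5 and 27.0 CPM in the parental cells, so the 3 groups did not overlap. Against the control clone the difference was a log2 fold change of 1.74 (SE 0.13, adjusted p 1.96e-05), and against the parental cells it was 0.97 (SE 0.13, adjusted p 0.00057). The control clone was below the parental cells (-0.77, adjusted p 0.0038). Syce2 overlaps Gcdh, whose log2 fold changes were -0.10 (adjusted p 0.414) and 0.03 (adjusted p 0.856). The Syce2 promoter holds the core motif, its longer form and an E-box. No match to any of these was found for Zcwpw1 or Tdrkh, though not every germline gene had a promoter to search. Over the 30 other germline genes with a promoter in the table, 11 hold the core (36.7%), 5 the longer form (16.7%) and 14 an E-box (46.7%). These shares count genes with a match in any of their promoters, whereas the shares of all promoters given above count each promoter once.

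Tdrkh, which encodes a Tudor protein of the piRNA pathway, differed by less. The knockout-clone libraries were at 58.6, 54.5 and 60.4 CPM, with 48.5, 45.7 and 48.0 CPM in the control clone and 49.5, 51.4 and 45.1 CPM in the parental cells. Its log2 fold change was 0.29 (SE 0.08, adjusted p 0.0159) in the comparison with the control clone and 0.25 (SE 0.08, adjusted p 0.0378) in that with the parental cells. The call against the control clone was lost without knockout replicate 1 (0.29, adjusted p 0.0519) or replicate 3 (0.26, adjusted p 0.0632), and the call against the parental cells was lost without any 1 of the knockout or parental libraries (adjusted p 0.0522 to 0.157), without the filter (0.118) and with total counts as the scale (0.0514). Tdrkh overlaps Oaz3, Gm42463 and Gm42464.

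**Figure D2:**
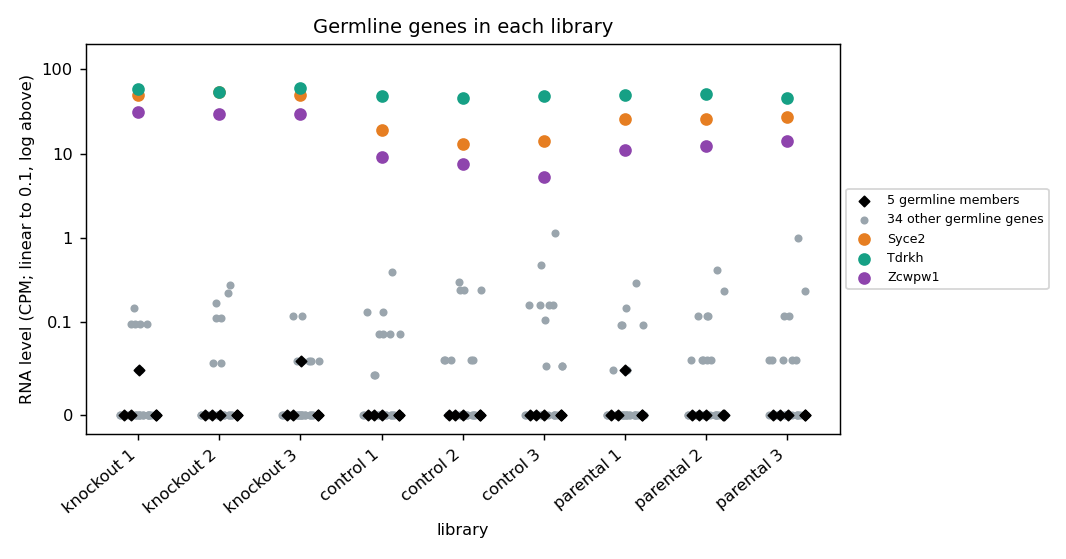
Level of 42 germline genes in each of the 9 libraries, in CPM on an axis that is linear up to 0.1 and logarithmic above; each point is 1 gene in 1 library. The 5 germline members (black diamonds) lie at 0 or at the level of 1 count, while Zcwpw1, Syce2 and Tdrkh are expressed in every library, Zcwpw1 and Syce2 at their highest in the knockout clone.

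The other subunits of PRC1.6 did not move one way. Of 13 partner genes, all tested, 3 were higher and 1 lower against the control clone (4 of 13, or 30.8%, beside 42.9% of tested genes) and 3 were higher and 3 lower against the parental cells (46.2% beside 31.4%). Their median log2 fold changes were 0.05 and 0.02, beside -0.02 and -0.01 over all tested genes. The first comparison named in each case below is that against the control clone and the second that against the parental cells. In this and the following lists, genes called in a single knockout comparison are named because of their values. Hdac1, a histone deacetylase, was higher in both, at 140, 141 and 139 CPM in the knockout libraries, 104, 106 and 108 CPM in the control clone and 113, 109 and 109 CPM in the parental cells. Its log2 fold change was 0.41 (SE 0.06, adjusted p 0.000711) in the first comparison and 0.34 (SE 0.06, adjusted p 0.00286) in the second, and the knockout libraries did not overlap the others.

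Yaf2, a RING1-binding subunit, was lower in both, at 51.6, 49.4 and 52.8 CPM in the knockout libraries against 78.6, 66.4 and 77.8 CPM in the control clone and 65.6, 60.4 and 65.0 CPM in the parental cells. Its log2 fold change was -0.53 (SE 0.08, adjusted p 0.000954) in the first comparison and -0.31 (SE 0.08, adjusted p 0.0208) in the second, where the call did not hold without any 1 of the knockout libraries or without parental replicate 1 or 3 (adjusted p 0.0534 to 0.0891) and without the filter (0.055). Wdr5 (0.43, adjusted p 0.0372) and Hdac2 (0.27, adjusted p 0.0276) were called higher against the control clone. Max, the obligate partner of MGA, was called higher against the parental cells (0.33, adjusted p 0.0347), with 0.04 (adjusted p 0.793) against the control clone. Rybp, the paralogue of Yaf2, was called higher against the parental cells (0.31, adjusted p 0.0155) but the control clone exceeded them too (0.35, adjusted p 0.0135). Tfdp2, a dimerization partner of E2F proteins, was lower than in the parental cells (-0.56, adjusted p 0.000837), as was the control clone (-0.74, adjusted p 0.000443). Ring1, an E3 ligase of the complex, was lower than in the parental cells as well (-0.37, adjusted p 0.042). These smaller calls did not all hold without single libraries. Wdr5 was lost without any 1 of the knockout libraries or control replicate 1 or 3 (adjusted p 0.0534 to 0.11), and Hdac2 without knockout replicate 1 or 3 or control replicate 1 (0.0602 to 0.0946). Max was lost without any 1 of the knockout libraries or parental replicate 2 or 3 (0.083 to 0.123) and without the filter (0.0559), and Rybp without knockout replicate 1 or 3 or parental replicate 2 (0.0515 to 0.0711), with its call in the control clone lost without parental replicate 2 (0.0719). Ring1 was lost without knockout replicate 1 or 3, control replicate 1 or any 1 of the parental libraries (0.0534 to 0.155) and without the filter (0.147).

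**Figure D3:**
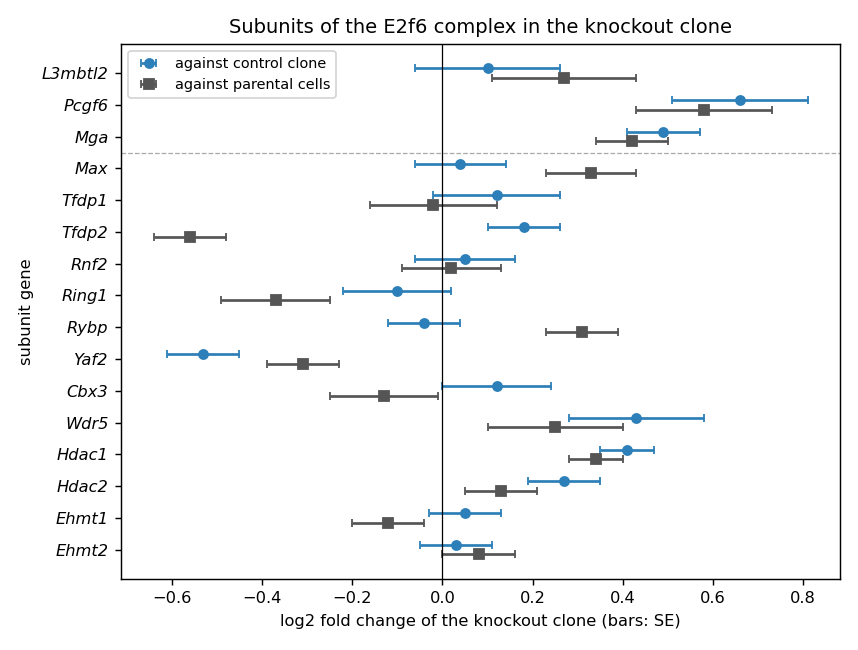
Log2 fold change of the knockout clone against the control clone (circles) and the parental cells (squares) for 3 core partners, above the dashed line, and 13 other subunits; bars are the SE. Pcgf6, Mga and Hdac1 lie right of 0 and Yaf2 left of 0 in both, and the estimates of several genes, Rybp and Tfdp2 among them, differ in sign between the comparisons.

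E2f6 is 1 of 8 E2F genes. Per kilobase, E2f4, a repressor of quiescent cells, was the highest in every group, at 46.5 ± 1.91 CPM per kilobase in the knockout clone, 40.9 ± 9.18 in the control clone and 39.0 ± 4.09 in the parental cells (SD, n = 3). E2f6 ranked 6 of 8 in the control clone (4.84 ± 0.715) and 7 of 8 in the parental cells (4.39 ± 0.185), where its range overlapped that of E2f7 (5.17 ± 0.705), an atypical repressor, and lay above that of E2f2 (2.76 ± 0.0893). In the control clone its range overlapped those of E2f2 and E2f7. In the knockout clone it ranked last. With the longest transcript as length, a setting added after the data were seen, E2f6 ranked 6 of 8 in the parental cells too, and its rank in either clone was the same as before. E2f7 was higher than in the control clone by a log2 fold change of 0.96 (SE 0.18, adjusted p 0.00262), with 0.35 (adjusted p 0.172) against the parental cells. The control clone was itself below the parental cells for E2f7 (-0.61, adjusted p 0.0413), a value that did not pass without any 1 of the knockout libraries, control replicate 1 or 3 or parental replicate 1 or 2 (0.0544 to 0.126) or in a fit to those groups alone (0.104). E2f8, the other atypical repressor, gave 0.55 (adjusted p 0.0478) and -0.04 (adjusted p 0.892). E2f5, a pocket-protein-dependent repressor, was higher than in the parental cells by 1.03 (SE 0.15, adjusted p 0.000997), and so was the control clone (0.93, adjusted p 0.00314). E2f2 was lower than in the control clone (-0.56, adjusted p 0.0129), with -0.04 (adjusted p 0.853) against the parental cells. The control clone was itself higher than those for E2f2 (0.52, adjusted p 0.0342), which did not hold without knockout replicate 1, control replicate 2 or any 1 of the parental libraries (0.0554 to 0.113) or in a fit to those groups alone (0.0533). The call of E2f2 in the knockout clone was lost without knockout replicate 3 (adjusted p 0.0562), and that of E2f8 without any 1 library other than control replicate 2 (0.0537 to 0.132).

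**Figure D4:**
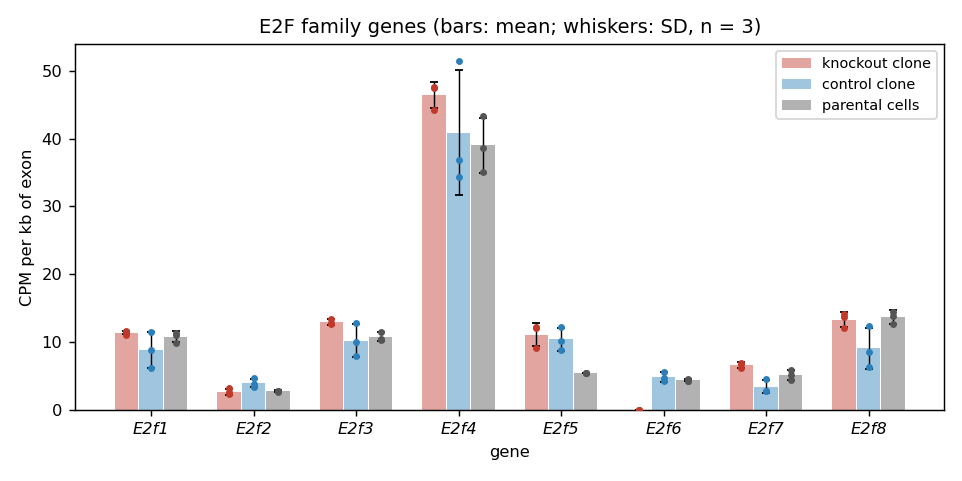
Level of the 8 E2F genes by group, in CPM per kilobase of exon; bars are means, whiskers the SD of 3 libraries and points single libraries. E2f4 is highest in every group, and E2f6 is at 4.84 and 4.39 in the control clone and parental cells and has no visible bar in the knockout clone.

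Of 23 paralogues of the complex's E2F, PCGF, L3MBTL and MAX-network proteins, 20 were tested, with 5 higher and 3 lower against the control clone (beside 42.9% of all genes called) and 4 higher and 3 lower against the parental cells (beside 31.4%). Their median log2 fold changes were 0.25 and 0.09. Mycl, a MYC-family partner of MAX, had 4.83, 4.12 and 3.74 CPM in the knockout libraries, 0.262, 0.238 and 0.105 CPM in the control clone and 1.06, 1.24 and 0.883 CPM in the parental cells. Its log2 fold change was 4.34 (SE 0.33, adjusted p 1.88e-05) in the first comparison and 1.99 (SE 0.27, adjusted p 0.000578) in the second, with the control clone also below the parental cells (-2.34, adjusted p 0.00215). Pcgf3, the ring finger subunit of another variant complex, was higher in both by 0.33 (adjusted p 0.0122) and 0.37 (adjusted p 0.0108). Bmi1, the PCGF of canonical PRC1, was lower in both by -0.35 (adjusted p 0.00573) and -0.36 (adjusted p 0.00735). Mxd1, a repressive MAX partner, was lower as well (-0.61, adjusted p 0.0116; -0.49, adjusted p 0.0381). Pcgf3 was lost against the control clone without knockout replicate 3 (adjusted p 0.0517) and against the parental cells without parental replicate 2 (0.0511), and Mxd1 against the parental cells without any 1 of the knockout libraries, control replicate 1 or parental replicate 2 or 3 (0.0533 to 0.147).

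The somatic counterparts of the silent germline members were all expressed. Of 12 such genes, 5 were called against the control clone (41.7%, beside 42.9% of all tested genes called and 18.7% called higher). Against the parental cells 2 were called (16.7%, beside 31.4% called and 13.1% called higher). Each of these calls was higher in the knockout clone. Their median log2 fold changes were 0.08 and 0.06. The cohesin genes Stag1 (0.45, adjusted p 0.00714), Smc1a (0.36, adjusted p 0.0155) and Smc3 (0.66, adjusted p 0.000312) were higher than in the control clone, and their log2 fold changes against the parental cells were -0.04, 0.17 and 0.12, with adjusted p of 0.825, 0.213 and 0.314. The control clone was below the parental cells for Stag1 (-0.48, adjusted p 0.0111) and Smc3 (-0.54, adjusted p 0.00267), the first not passing in a fit to those groups alone (0.0507). In that comparison 1 of the 12 counterparts was called higher and 3 lower (33.3% beside 21.4% of all genes). Tuba1a, an alpha-tubulin, had 702, 627 and 725 CPM in the knockout libraries, 273, 261 and 310 CPM in the control clone and 378, 391 and 329 CPM in the parental cells. It was higher in both comparisons, by 1.28 (SE 0.10, adjusted p 2.31e-05) in the first and 0.90 (SE 0.10, adjusted p 0.00021) in the second. The control clone was below the parental cells (-0.38, adjusted p 0.0239), but not past the threshold without control replicate 1 or parental replicate 1 or 2 (0.0681 to 0.0903) or in a fit to those groups alone (0.0632). Tuba4a was called against the control clone (0.29, adjusted p 0.0314) and Tuba8 against the parental cells (1.27, adjusted p 0.0117), where the control clone was higher too (1.74, adjusted p 0.00405). Smc1a was lost without knockout replicate 1 (adjusted p 0.0514), and Tuba4a without any 1 of the knockout libraries (0.0618 to 0.0856).

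Silencing of germline promoters is also known to need DNA methylation and H3K9 methylation. Of 10 genes of these systems, 7 were tested. Against the control clone, Uhrf1, which recruits the maintenance methyltransferase, was higher (0.61, adjusted p 0.0251), as was the corepressor Trim28 (0.53, adjusted p 0.00879), and the methyltransferase Dnmt3a (-0.51, adjusted p 0.0403) and the dioxygenase Tet3 (-0.28, adjusted p 0.0485) were lower. These 4 of 7 stand beside 42.9% of tested genes, and the median over the 7 was -0.21 against the control clone and 0.15 against the parental cells. Dnmt3a lies on chromosome 12, where the median over 465 tested genes other than E2f6 was -0.25 against the control clone. Uhrf1 was lost without any 1 of the knockout libraries or control replicate 1 (adjusted p 0.0569 to 0.0596), Dnmt3a without any 1 of the knockout libraries, control replicate 1 or 3 or parental replicate 1 or 2 (0.0606 to 0.125), and Tet3 without any 1 library other than knockout replicate 1 and control replicate 1 (0.0718 to 0.168). Dnmt3a was also lost with total counts (0.0542), limma voom (0.0502) and a fit to the groups compared alone (0.0769), and Tet3 with those (0.071, 0.0561 and 0.126), with DESeq2 size factors (0.051) and without the filter (0.103). For Tet3 the control clone exceeded the parental cells (0.43, adjusted p 0.0163), but not past the threshold without parental replicate 2 or 3 (0.068 and 0.0615). Against the parental cells edgeR called 0 of 7, beside 31.4% of tested genes; 3 of 7 were under an unadjusted p of 0.05 and DESeq2 called 3. Dnmt1, the maintenance methyltransferase, had log2 fold changes of -0.21 (adjusted p 0.449) and -0.54 (adjusted p 0.0737).

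E2F proteins are best known for genes of the start of S phase, and 20 of these were tested. Against the control clone 9 were higher and 1 lower (beside 42.9% of all genes called and 18.7% called higher), with a median log2 fold change of 0.59. Against the parental cells 3 were higher and 1 lower (beside 31.4% called and 13.1% called higher), with a median of 0.11. The control clone itself was below the parental cells in 8 of the 20 (beside 11.0% of all genes called lower), with a median of -0.42. Ccne1, the gene of a cyclin that drives S-phase entry and 1 of 2 genes of the list higher in both knockout comparisons, had 23.9, 27.5 and 25.0 CPM in the knockout libraries, 13.7, 18.3 and 13.5 CPM in the control clone and 20.8, 17.0 and 13.4 CPM in the parental cells, and was higher in both (0.75, adjusted p 0.00691; 0.58, adjusted p 0.0311). The second of these calls was lost without any 1 of the knockout libraries or parental replicate 2 or 3 (adjusted p 0.0611 to 0.101). Rrm2, a subunit of ribonucleotide reductase, was lower in both (-0.85, adjusted p 0.000546, and -0.64, adjusted p 0.00386). It lies on chromosome 12, where the median over 465 tested genes other than E2f6 was -0.25 and 0.02 in these comparisons. Without control-clone replicate 2, 18 of the 20 were called against the control clone, beside 53.5% of all genes tested in that setting.

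E2f6 was not the single gene of its neighbourhood with low RNA in the knockout clone. The 5 tested genes before it on chromosome 12 (Gm6736, Gm4929, Fam84a, Gm48557 and Lpin1) had log2 fold changes of -0.56 to 0.80 in the knockout comparisons, with adjusted p of 0.287 or more. The nearest, Lpin1, a phosphatidate phosphatase gene, lies 200 kb away and gave -0.38 (adjusted p 0.604) and 0.24 (adjusted p 0.776). Of the 5 tested genes after it, 5 were lower against the control clone (beside 24.2% of all tested genes) and 3 against the parental cells (beside 18.3%). Rock2, a protein kinase gene 55.2 kb beyond the end of E2f6, was lower than in the control clone (-0.36, adjusted p 0.00283), with -0.04 (adjusted p 0.723) against the parental cells. The control clone exceeded the parental cells for Rock2 (0.32, adjusted p 0.0113), but not past the threshold without parental replicate 1 or 2 (0.0565 and 0.0761). Pdia6, a protein disulfide isomerase gene at 427 kb, gave -0.58 (adjusted p 0.022) and -0.21 (adjusted p 0.375). Its call against the control clone was lost without knockout replicate 1 (adjusted p 0.0501) or replicate 2 (0.0916).

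Pqlc3, 149 kb beyond E2f6, had 7.37, 10.1 and 7.65 CPM in the knockout libraries, 27.0, 15.6 and 37.3 CPM in the control clone and 17.2, 20.5 and 23.9 CPM in the parental cells (log2 fold changes -1.67, SE 0.29, adjusted p 0.00149, and -1.29, SE 0.29, adjusted p 0.00842). Kcnf1, a potassium channel subunit gene at 332 kb, had 4, 1 and 1 counts in the knockout clone, 135, 100 and 180 in the control clone and 54, 61 and 53 in the parental cells (-5.96, SE 0.42, adjusted p 1.15e-05, and -4.77, SE 0.44, adjusted p 7.95e-05). Atp6v1c2, a proton pump subunit gene at 445 kb, had 5, 6 and 6 counts in the knockout clone, 160, 99 and 197 in the control clone and 54, 43 and 55 in the parental cells (-4.63, SE 0.31, adjusted p 1e-05, and -3.16, SE 0.33, adjusted p 0.000149). For all 3 genes the knockout libraries were below the other 6. The control clone also exceeded the parental cells for Kcnf1 and Atp6v1c2, by 1.19 (adjusted p 0.0132) and 1.47 (adjusted p 0.00304). The first of these was lost without parental replicate 1 (adjusted p 0.067).

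Further along the same side, the pseudogenes Gm49329 and Gm49328 are named because of their values. Gm49329 had 0 counts in the knockout clone, 62 in the control clone and 34 in the parental cells, which is at least 19.5-fold and at least 11.5-fold lower when 3 counts over the knockout libraries are taken as the limit. Gm49328 had 19 counts in the knockout clone, 143 in the control clone and 88 in the parental cells, with log2 fold changes of -2.80 (adjusted p 8.58e-05) and -2.22 (adjusted p 0.000562). The models overlap each other, so their reads are uncertain. Not all genes between them and Atp6v1c2 were lower. Odc1, the gene of the rate-limiting enzyme of polyamine synthesis, gave -0.16 (adjusted p 0.366) against the control clone and was higher than in the parental cells by 0.55 (adjusted p 0.0154), a call lost without parental replicate 3 (0.0604). The control clone exceeded the parental cells too for Odc1 (0.72, adjusted p 0.00718). Nol10, a nucleolar protein gene, gave 0.03 and 0.52 with adjusted p of 0.913 and 0.0885. Hpcal1, a calcium sensor gene in the same stretch, was lower than in the control clone (-0.67, adjusted p 0.00649), with -0.33 (adjusted p 0.129) against the parental cells and all knockout libraries below the other 6.

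Over the 465 other tested genes of chromosome 12, the median log2 fold change was -0.25 against the control clone, where 37.2% were called lower beside 24.2% of all tested genes. Against the parental cells it was 0.02, with 13.3% called lower beside 18.3%. For the control clone relative to the parental cells the chromosome's median was 0.29, with 141 genes higher (30.3% beside 10.4% of all tested genes) and 17 lower (3.66% beside 11.0%). The low levels of E2f6, Pqlc3, Kcnf1 and Atp6v1c2 stood against both groups.

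**Figure D5:**
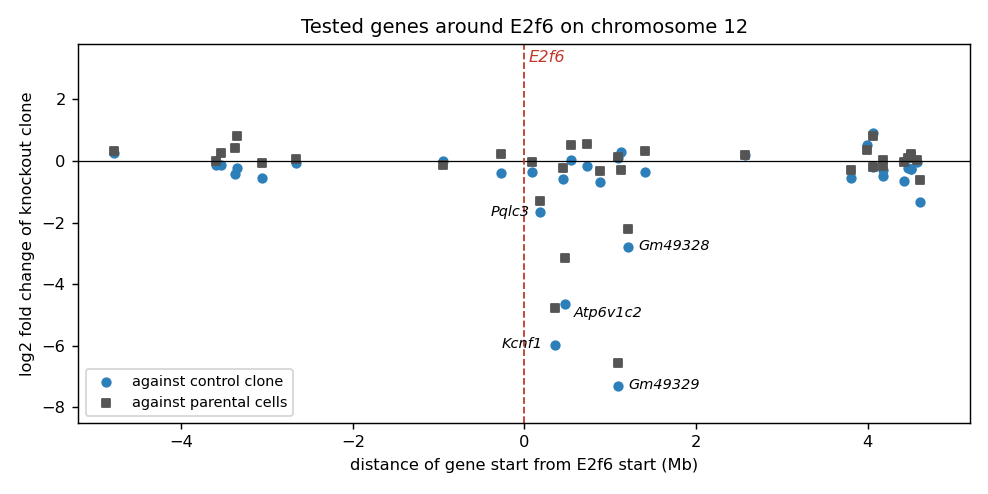
Log2 fold change of the knockout clone against the control clone (circles) and the parental cells (squares) for the tested genes within 5 Mb of E2f6, by the distance of their starts from that of E2f6, which is left out; the points have no error bars, and that of Gm49329 depends on the fit, since its knockout counts are 0. The 5 named genes lie after E2f6, with points near 0 among them, and a further point below -1 against the control clone is Gm4419, which is 4.61 Mb away (-1.34 and -0.63).

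The genes whose log2 CPM followed that of E2f6 most closely over the 9 libraries were Bmp2, Panx1, B4galt4, Stk39 and Icam1, with Pearson r of 0.9982, 0.9978, 0.9966, 0.9964 and 0.9951 among 9811 genes; 17 genes were above 0.99. These values describe the gap between the knockout clone and the rest: within the 6 other libraries, r was -0.33 to 0.54. Bmp2, a secreted growth factor gene, Panx1, a channel gene, and Stk39, a kinase gene, had 0 counts in every knockout library. They were at least 122-fold, 168-fold and 185-fold lower there, taking the smaller bound against either group. B4galt4, a galactosyltransferase gene, had 2 counts over the knockout libraries, beside 53.1 to 54.7 CPM in the control clone and 28.7 to 30.4 CPM in the parental cells. Icam1, an adhesion receptor gene, was lower but present, at 17.0 to 17.5 CPM against 40.8 to 47.7 CPM.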

How the data were processed

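RNA was measured in 9 libraries, 3 per group. The deposited values are estimated counts per gene that the authors made from their reads; per the submitters' processing notes the tools include RSEM 1.3.0, STAR 2.5.2 and DESeq2 1.10.1 with GRCm38, and the annotation release and strand setting are not given in the sources used here. All values were whole, so none was changed by rounding. Symbols and positions came from GENCODE M21 (54809 of 54838 IDs matched) and promoters from RefSeq GRCm38.p6.

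Counts were tested with edgeR 4.0.16 in R 4.3.3 (quasi-likelihood, TMM, filterByExpr with a minimum count of 10 and total of 15, 9 libraries in 1 fit by group), with Benjamini-Hochberg adjustment over 13153 genes and a threshold of 0.05; the procedure was tested on simulated data. Alternatives used DESeq2 1.42.0, limma 3.58.1 (voom), other scalings and filters. Log2 CPM for likeness used a prior count of 2. The members and gene lists were chosen with earlier results of these data known. Named were all members and neighbours, up to 3 highest and 3 lowest genes per list called alike in both knockout comparisons, expressed germline genes, the 5 genes most like E2f6 and those said to be named for their values; 1 S-phase gene that this rule takes in is not reported here.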

Additional observations from a re-analysis of the deposited data

How the results depend on the processing

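Each group holds 3 libraries of 1 clone or line, and counts of 0 to 3 limit what can be said of the germline members. The replicate numbers did not pair the libraries: same-numbered libraries correlated at -0.22 to 0.34, with 3 of 9 pairs above 0.1. With the replicate number as a block, 5528, 3941 and 2492 genes were called against the control clone, against the parental cells and between those groups (5643, 4131 and 2814 without it), the S-phase list had 16 calls against the control clone (10 without), and the methylation list had 2 (4) against the control clone and 1 (0) against the parental cells. PRC1.6 partners against the parental cells had 4 calls with the block (6 without). The named calls lost under the block were those of Tdrkh (adjusted p 0.0683), Max (0.0592) and Ring1 (0.0722) against the parental cells and of Dnmt3a (0.0636) and Tet3 (0.0814) against the control clone.

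Fitting only the groups compared gave 6840 genes against the parental cells and 1525 between control clone and parental cells. Against the parental cells it gave 13 paralogues (7 in the fit of all groups), 4 somatic counterparts (2), 5 methylation genes (0) and 12 S-phase genes (4); between control clone and parental cells 1 germline gene (2), 2 somatic counterparts (4) and 3 S-phase genes (8); against the control clone 2 methylation genes (4). The methylation list against the control clone also had 2 with total counts and 2 with limma voom, and against the parental cells 1 without the filter and 3 with DESeq2. Without the filter, 16 S-phase genes were called against the control clone and 3 PRC1.6 partners (6) against the parental cells. With genes kept from 5 CPM upward on average, the called neighbours were 3 (5), 1 (3) and 1 (3) in the 3 comparisons and the somatic counterparts against the parental cells 1 (2). With the longest transcript as length, the parental levels per kilobase were 8.24 for E2f6, 12.5 for L3mbtl2, 9.81 for Pcgf6 and 6.56 for Mga, which puts Mga last. Ranked by Spearman's rank correlation, 0 of the 5 genes most like E2f6 were shared.

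Leaving out 1 library gave 2515 to 5693 genes against the parental cells, with 2515 without parental replicate 3 and 2626 without knockout replicate 1, and 1472 to 4102 between control clone and parental cells. The ranges of calls against the control clone, against the parental cells and between those groups were 2 to 5, 2 to 7 and 1 to 5 for PRC1.6 partners, 4 to 13, 3 to 11 and 3 to 7 for paralogues, 1 to 5, 0 to 4 and 0 to 4 for the methylation list, and 9 to 18, 1 to 10 and 3 to 12 for S-phase genes. They were 3 to 6 for somatic counterparts against the control clone, and 1 to 2 for germline genes and 1 to 5 for neighbours between control clone and parental cells. The cause of these changes was not tested.

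Of 2991 values of single genes under an alternative, 2769 kept direction and side of the threshold (or, for the members' untested values, moved by less than the replicate spread), 135 lost the call, 50 gained one and 37 tested values changed sign. The untested value of L3mbtl2 against the control clone ran from -0.08 to 0.27 without single libraries. In a fit to the groups compared alone, the calls against the control clone of Wdr5 (adjusted p 0.0726), E2f8 (0.0842), Tuba4a (0.0517) and Pdia6 (0.0619) were lost as well, and without the filter that of Hdac2 (0.0518). None of the values that changed sign was called in the fit of all groups, and Fam84a without control replicate 3 was the single one called after the change (0.33, adjusted p 0.0286). With limma voom the log2 fold change against the control clone was 0.02 for Fam84a and -0.02 for Gm48557, and with total counts that of Pcgf3 between control clone and parental cells was -0.01. Without single libraries, the values against the control clone ran from -0.65 to 0.20 for Gm6736, -0.26 to 0.33 for Fam84a, -0.26 to 0.39 for Gm48557, -0.81 to 0.47 for Lpin1, -0.02 to 0.14 for Max, -0.07 to 0.01 for Rybp, -0.01 to 0.24 for E2f5, -0.41 to 0.10 for Dnmt1 and -0.17 to 0.35 for Nol10. Against the parental cells they ran from -0.35 to 0.20 for Gm4929, -0.40 to 0.20 for Gm48557, -0.17 to 0.06 for E2f2, -0.10 to 0.03 for E2f8 and -0.03 to 0.07 for Gcdh. Between control clone and parental cells they ran from -0.23 to 0.08 for Pcgf6, -0.03 to 0.08 for Pcgf3, -0.06 to 0.23 for Mxd1, -0.07 to 0.06 for Bmi1, -0.27 to 0.32 for Fam84a, -0.51 to 0.11 for Gm48557, -0.23 to 1.05 for Lpin1 and -0.12 to 0.06 for Panx1.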
